A study of Homo sapiens with 6 samples.

Results

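Beyond the oncogene MYC on human chromosome 8 lies a stretch with few protein-coding genes, occupied by long noncoding RNA (lncRNA) genes. The regions studied here are the rows of a deposited chromatin accessibility table that lie in a stretch of 2.1 Mb of chromosome 8 (GRCh38), from 35.4 kb before MYC to 13.4 kb beyond GSDMC, the next protein-coding gene. The rule that chose them uses position and no measured value, but the stretch was picked with earlier results of these data known. They number 5 of the table's 3838 regions, of which 170 are on chromosome 8. One region lies in each of the lncRNA genes PVT1, LOC124902020, LINC00824 and CCDC26, and the remaining one lies between LOC124902020 and LINC00824. The data come from ATAC-seq, an assay of open chromatin that uses a transposase to cut and tag DNA not covered by nucleosomes. The cells were 3 multiple myeloma lines labelled wild type, named RPMI8226, KMS-11 and KMS-12. Each of them was grown with the solvent DMSO or with 1 µM JQ1 for 72 h, which makes 6 libraries in 2 groups of 3. There was 1 library per line and treatment, although the design text speaks of duplicates and of RNA-seq. The labels do not say which KMS-12 subline was used, and a table of fold changes holds no levels, so the plasma cell identity of the lines was not checked against markers.

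JQ1 is a small molecule that occupies the bromodomains of the BET proteins and so removes these readers of acetylated histones from chromatin. In myeloma cells, BET inhibition is best known for lowering MYC transcription. MYC is controlled by enhancers spread over a long distance on both sides of the gene, which differ between tissues. PVT1, its neighbour, hosts several microRNA genes and contains enhancers, its promoter can compete with that of MYC for enhancer contact, and rearrangements of the MYC and PVT1 neighbourhood are frequent in myeloma. CCDC26, farther out, lies in a part of the locus that holds a distant MYC enhancer cluster used by blood stem cells and leukaemias. Neither copy number nor rearrangement of the locus was analysed here, nor was the expression of any gene.

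Values are the authors' log fold changes, 1 per line, taken as log2 ratios of JQ1 to DMSO, so that a value below 0 means lower accessibility under JQ1. The header states neither the base nor the direction: with the ratio the other way round, the same values would mean higher accessibility under JQ1, and the order of the regions and lines would stay the same in size. Every region of the table was below 0 in all 3 lines, and each region's deposited count of lines was the count of its folds that were -0.5 or lower. A negative fold at these 5 regions is therefore a condition of being listed and not a result. Regions of the locus that rose, stayed level or fell in 1 line only were not analysed here. Depth is unknown because the table has no counts, and within a line a value has no replicate. What can be compared is how low each region was, in which line, and how that relates to the other regions of the table.

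The region nearest to MYC lay inside PVT1 (chr8:127801329-127801699, 371 bp), 58.4 kb beyond MYC and 6.81 kb inside the end of PVT1 that faces it. MIR1204, the first of the microRNA genes that PVT1 hosts, was 5.30 kb away. In the authors' deposited table the PVT1 fold was -0.71 in KMS-11 and -0.66 in KMS-12, with -0.47 in RPMI8226. The lines were close to each other at PVT1, with a range of 0.23 on the log2 scale, and only 6.46% of all regions had a smaller SD over lines than its 0.12. RPMI8226 was just above the -0.5 limit, so the authors counted this region in 2 lines. The mean at PVT1 was -0.62 ± 0.12 (SD, n = 3 lines), and 69.6% of all regions had a lower mean.

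The region in CCDC26 (chr8:129415487-129415881, 395 bp) was the farthest from MYC, at 1.67 Mb, and lay 63.8 kb inside the MYC-facing end of that gene. CCDC26 is an lncRNA gene whose locus carries inherited variants linked to glioma risk. Its fold in the authors' deposited table was -0.69 in KMS-11 and -0.68 in KMS-12, with -0.33 in RPMI8226. As at PVT1, both KMS lines had nearly the same value, and RPMI8226 was the line closest to 0. The mean at CCDC26, -0.57 ± 0.21 (SD, n = 3 lines), was closer to 0 than that of the other 4 regions, and 80.2% of all regions had a lower one. The same KMS-11 value was printed for 100 regions of the table and the same KMS-12 value for 101, and 8 regions, CCDC26 included, shared both. The part of such repeated values in the CCDC26 result was not tested.

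**Figure D1:**
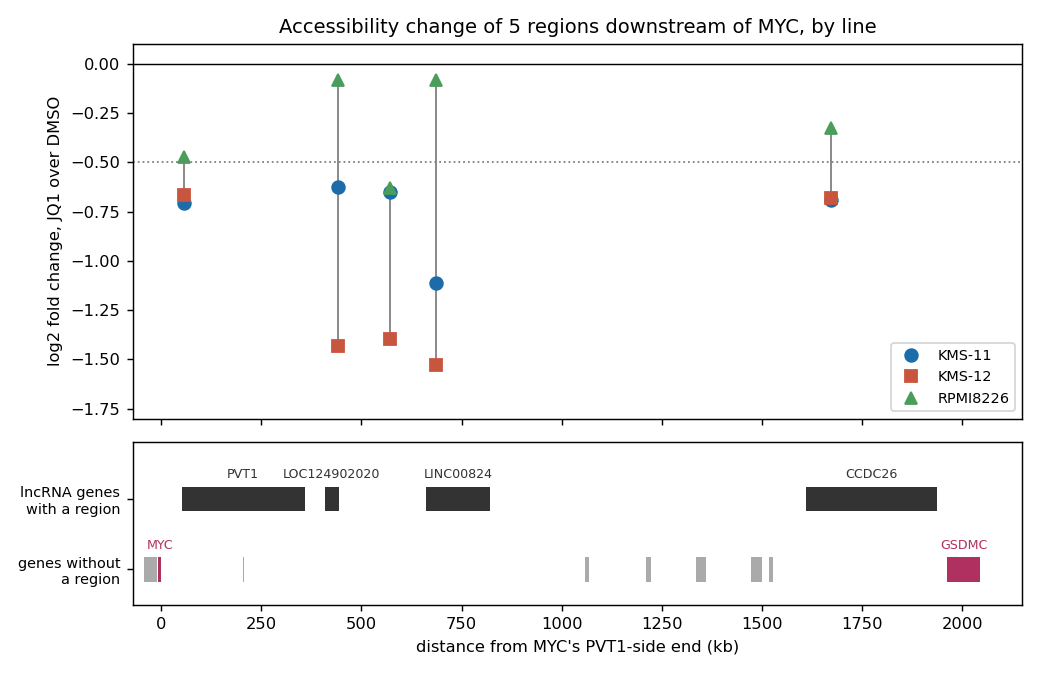
The upper panel plots the log2 fold change (JQ1 over DMSO) of the 5 regions in each line against their distance in kb from the end of MYC that faces PVT1, with a grey bar from the lowest to the highest line and a dotted line at -0.5. The lower panel shows lncRNA genes with a region in black, lncRNA genes without one in grey and protein-coding genes in red: the 3 middle regions spread widely with KMS-12 lowest, while PVT1 and CCDC26 are narrow.

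Between these outer regions, 3 regions lay within 244 kb and shared a low KMS-12 value. The region in LOC124902020 (chr8:128184645-128185015, 371 bp) was 442 kb from MYC and 1.75 kb inside the far end of that gene, an lncRNA locus with no role given here. Its fold in the authors' deposited table was -0.63 in KMS-11 and -1.43 in KMS-12, with -0.082 in RPMI8226. Without a replicate library, no fold of a single line can be tested against no change. That holds for the KMS-12 value here as for the RPMI8226 value, which was near no change. The mean was -0.71 ± 0.68 (SD, n = 3 lines), with a larger SD than 90.1% of all regions. The KMS-12 library pair carried much of this mean, which was -0.35 without it.

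The region between the genes (chr8:128313803-128314309, 507 bp) was 571 kb from MYC, 129 kb beyond the LOC124902020 region and 91.0 kb short of LINC00824, the nearest gene. In the authors' deposited table it was at -0.65 in KMS-11 and -1.39 in KMS-12, with -0.63 in RPMI8226. It was the one region of the 5 that the authors counted in 3 lines, as they did for 24.8% of all regions. Here KMS-11 and RPMI8226 were almost equal and KMS-12 stood below both. The mean was -0.89 ± 0.44 (SD, n = 3 lines).

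The region in the lncRNA gene LINC00824 (chr8:128428089-128428754) was the widest of the 5 at 666 bp, wider than 85.1% of all regions. It lay 685 kb from MYC and 22.8 kb inside the MYC-facing end of LINC00824. Its fold in the authors' deposited table was -1.11 in KMS-11 and -1.53 in KMS-12, with -0.082 in RPMI8226. This was the lowest of the 5 in both KMS lines, while its RPMI8226 value was as close to 0 as that of LOC124902020. The mean was -0.91 ± 0.75 (SD, n = 3 lines), and 20.2% of all regions had a lower one. Without KMS-12 the mean was -0.60. The LINC00824 value in KMS-12 was also repeated in the table, in 55 regions, and that of LOC124902020 in 12, whereas the region between the genes shared its KMS-12 value with few others (4 regions in all).

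In KMS-12, 10.6% of all regions were lower than LOC124902020, 11.3% lower than the region between the genes and 7.40% lower than LINC00824. PVT1 and CCDC26 were in the upper part of the same distribution, with 62.6% and 59.0% of regions lower. In KMS-11 LINC00824 stood out, with 15.1% of regions lower, and the other 4 lay between 50.3% and 61.5%. In RPMI8226 4.92% of all regions were higher than LOC124902020 and 4.82% higher than LINC00824. There, 78.0% of regions were lower than CCDC26, 69.3% lower than PVT1 and 47.9% lower than the region between the genes. The same stretch of chromatin therefore held regions near the low end of the table in KMS-12 and near its upper end in RPMI8226. Part of this contrast is built in by the listing. A listed region above -0.5 in RPMI8226 must be at or below that limit in both KMS lines. The KMS-12 ranks, in contrast, are taken over all regions, including those above the limit in KMS-12. How much of the contrast goes beyond the listing was not tested. No test between lines was possible with 1 library per line and treatment.

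**Figure D2:**
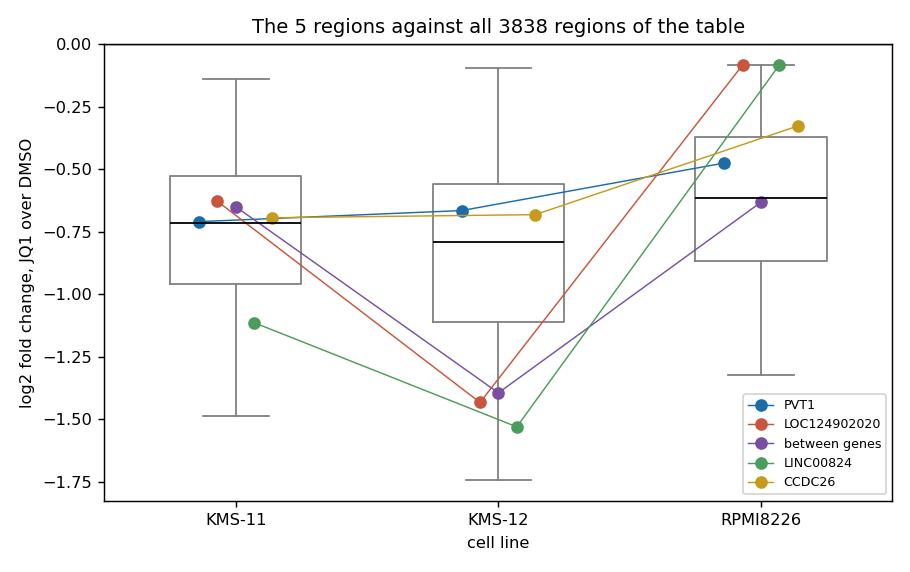
Log2 fold change (JQ1 over DMSO) of the 5 regions in each line, as coloured points joined per region, over boxes of all 3838 regions (line, median; box, quartiles; whiskers, 5th and 95th percentiles). In KMS-12 the 3 middle regions lie below the box, at -1.39 to -1.53, and in RPMI8226 LOC124902020 and LINC00824 lie at the upper whisker.

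RPMI8226 was the line closest to 0 at all 5 regions, as it was in 42.9% of the regions of the table. The order with KMS-12 lowest, then KMS-11, then RPMI8226 held at the 3 middle regions and in 25.1% of all regions. PVT1 and CCDC26 had KMS-11 lowest, then KMS-12, then RPMI8226, an order seen in 17.8% of all regions, but their KMS lines differed by far less than the lines of the middle regions did. Of the 4 regions counted in 2 lines, RPMI8226 was the line above -0.5 in all 4, against 42.8% of the 2886 such regions in the table. Regions that share a locus are not independent, so these counts describe the locus and carry no test.

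The median fold over the 5 regions was set beside that over all regions, with the same limit from the listing. It was -1.39 against -0.79 in KMS-12, -0.69 against -0.71 in KMS-11 and -0.33 against -0.61 in RPMI8226. These medians come from different regions, the one between the genes in KMS-12 and CCDC26 in RPMI8226. Among the 5, only LOC124902020 and LINC00824 were both low in KMS-12 and near the upper end in RPMI8226. The median over the 5 of the mean over lines was -0.71, the same to 2 decimals as over all regions (-0.71), beside -0.69 over chromosome 8 and -0.70 over the 515 regions that lie in lncRNA genes only. These lncRNA regions had RPMI8226 closest to 0 in 43.5% of cases and a KMS-12 median of -0.77. At LOC124902020 the mean lay near the median of the table while its KMS-12 and RPMI8226 values lay near opposite ends.

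**Figure D3:**
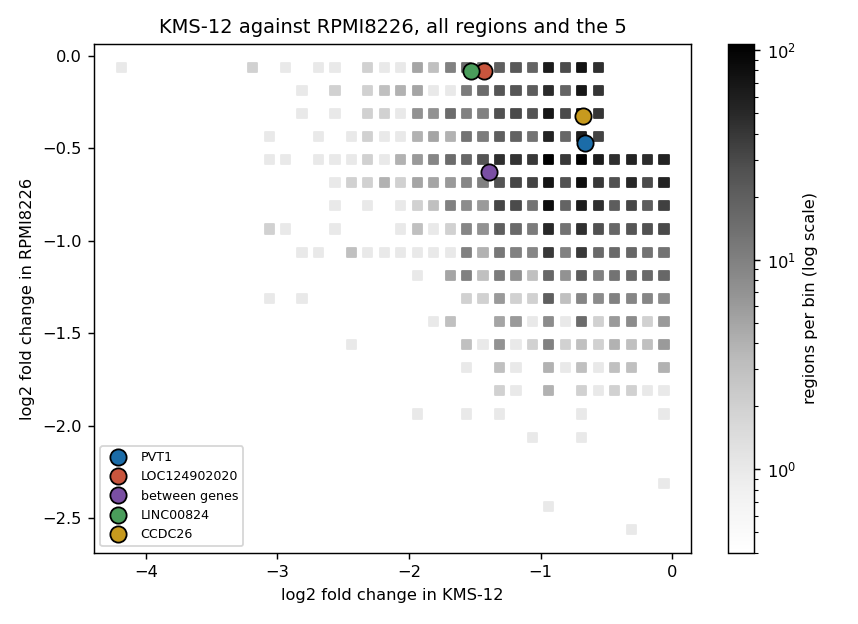
Log2 fold change in KMS-12 (horizontal) against RPMI8226 (vertical), with all regions as grey squares shaded by the number per bin on a log scale and the 5 regions as coloured points. LOC124902020 and LINC00824 lie at the top left, low in KMS-12 and at -0.082 in RPMI8226; the empty corner at the upper right follows from the listing of regions at or below -0.5 in at least 2 lines.

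Low values in KMS-12 at neighbouring regions were then counted across the table, a count chosen after the values were seen and given without a test. Taking 3 neighbouring regions at a time, 379 sets fitted into the 244 kb covered by the middle regions, some of them overlapping. The set downstream of MYC was the 1 set (0.264%) in which every region was at or below -1.39 in KMS-12, the limit being set by its own highest value. Since both the span and the limit come from this set, finding it was certain, and the count does not show that such sets are rare. Of single regions, 11.4% were at or below that limit, a share in other units than that of sets.

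Against 0, limma with Benjamini-Hochberg adjustment over all 3838 regions called all 5 means lower, as it did for 87.5% of the table, so the calls say nothing particular about these regions. The adjusted p-values by limma were 0.00264 for LINC00824, 0.00308 for the region between the genes, 0.0133 for LOC124902020, 0.0269 for PVT1 and 0.0381 for CCDC26. Their order is that of the means alone, because limma gave every region the same standard error of 0.262. The test repeats the selection of the table, and an exact two-sided sign-flip test over 3 lines cannot go below p = 0.25. With a line left out, 1 of the 5 was called without KMS-11 (the region between the genes), 0 without KMS-12 and 3 (the middle regions) without RPMI8226. In the same order, these fits called 1310, 1997 and 2112 of all 3838 regions, so a large part of the table lost its call too.

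The regions were next compared with the typical region of the same table. After the median of each line over all regions was subtracted, the mean was -0.20 for LINC00824 (limma 95% interval -0.70 to 0.30) and -0.19 for the region between the genes (-0.69 to 0.32). It was -0.0077 for LOC124902020 (-0.51 to 0.49), 0.090 for PVT1 (-0.41 to 0.59) and 0.14 for CCDC26 (-0.36 to 0.64). None of the 5 was called by limma in either direction (Benjamini-Hochberg adjusted p = 1.00 for each, n = 3 lines), and 0 of the 5 had an unadjusted p under 0.05. Of all 3838 regions, 0.339% were called lower and 0.0% higher. At an unadjusted p under 0.05 these shares were 3.34% and 0.0%. The listing limits how high a centred mean can be, and the highest of the table was 0.35. The limma intervals leave room for a difference from the typical region of up to 0.70 lower or 0.64 higher on the log2 scale, so the 5 are not shown to be alike or typical. They share 1 standard error of 0.256 taken from all regions, not each region's own spread. Without moderation they were wider at the 3 middle regions, with -1.84 to 1.43 for LINC00824 and -1.48 to 1.47 for LOC124902020. At PVT1 (-0.092 to 0.27) and CCDC26 (-0.20 to 0.48) they were narrower. Without KMS-12 the centred means of the 3 middle regions changed sign, to 0.067 for LINC00824, 0.024 for the region between the genes and 0.31 for LOC124902020.

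**Figure D4:**
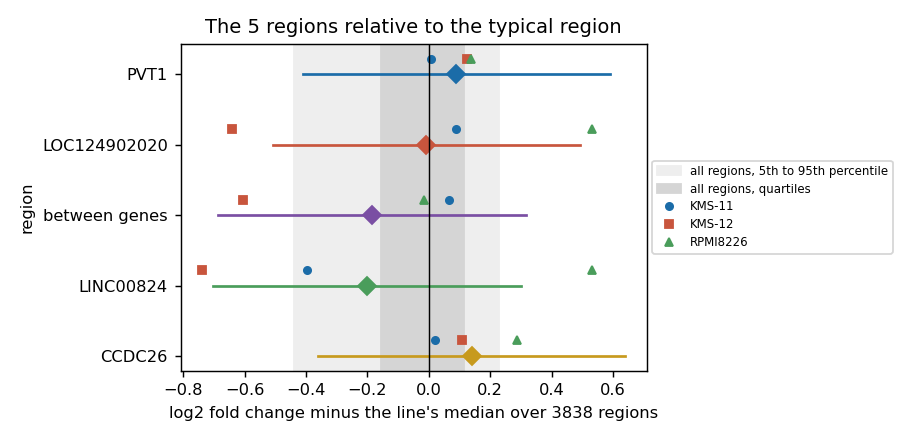
Log2 fold change of each region minus the line's median over all 3838 regions: diamonds are means over 3 lines, bars limma 95% intervals, and small symbols the single lines. Grey bands give the quartiles and the 5th to 95th percentiles of the means of all regions; all 5 intervals include 0, and the single lines of LOC124902020 and LINC00824 lie on both sides of it.

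Within the stretch, the annotation lists 12 lncRNA genes, of which 4 held a region, 6 microRNA genes and the protein-coding genes MYC and GSDMC, none of which did. GSDMC encodes a member of the gasdermin family of pore-forming proteins. The lncRNA genes without a region include CASC11, on the other side of MYC, and LINC00976 and LINC00977 between LINC00824 and CCDC26, where 987 kb held no listed region. Of the microRNA genes, MIR1205, MIR1206 and MIR1207 lay 135 to 176 kb from the nearest of the 5 regions, MIR3686 68.2 kb from CCDC26 and MIR1208 34.5 kb from LOC124902020. All 5 assignments were the same when the midpoint of a region was used.

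On the side of MYC away from PVT1 the nearest listed region was 1314 kb away (chr8:126420980-126421385), so that MYC sat in a stretch of 1380 kb without one. This region, 85.1 kb from the lncRNA gene LOC105375750, was at -0.92 in KMS-11 and -1.15 in KMS-12, with -0.61 in RPMI8226 in the authors' deposited table. Its neighbour (chr8:126401552-126401924) was at -0.11, -0.69 and -1.19 in the same lines, with RPMI8226 lowest. The first region beyond CCDC26 (chr8:130672904-130673420), 107 kb from ADCY8, an adenylyl cyclase gene, was at -1.33, -0.96 and -0.91. Thus 1 of the 3 flanking regions, like the 3 middle ones, had KMS-12 lowest, then KMS-11, then RPMI8226, and none of the 3 had RPMI8226 above -0.5. A stretch of the same length on the other side held 2 regions. Cut into 69 stretches of 2.1 Mb, chromosome 8 held a median of 2 regions per stretch (range 0 to 9), and 8 stretches, this one included, held 5 or more.

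Regions with the most similar folds over the 3 lines were found elsewhere in the genome, by Euclidean distance on the log2 scale (n = 3 lines). For PVT1 they lay inside SLC15A4, a peptide and histidine transporter gene (chr12:128820916-128821106, distance 0.031), and inside ANKRD29 (chr18:23629522-23629682, 0.035). For CCDC26 they lay inside RARB, a retinoic acid receptor gene (chr3:25452146-25452437, 0.027), and SDR42E2 (chr16:22184564-22184891, 0.028), both with the same repeated KMS-11 value and SDR42E2 also with the repeated KMS-12 value. For LOC124902020 they were in KCNB2, a potassium channel gene (chr8:72822308-72824353, 0.062), and 20.5 kb from LINC02273 (chr4:152079516-152080222, 0.063), both with its repeated KMS-12 value. For LINC00824 they were 8.86 kb from ASMT, which encodes the last enzyme of melatonin synthesis (chrX:1651939-1652125, 0.038), and 12.1 kb from LOC124901023 (chr5:87850693-87851195, 0.097), the latter with the repeated KMS-12 value of LINC00824. For the region between the genes they were 78.8 kb from LOC101927209 (chr4:49287003-49288359, 0.076) and 150 kb from LOC105373633 (chr2:136394614-136395154, 0.090). With 3 values per region, such likeness describes the folds only.

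Genes from lists around MYC and of cancer lncRNAs were counted where they held a listed region or were the nearest lncRNA or protein-coding gene to one within 100 kb, each region going to 1 gene. By this rule 8.05% of all such genes in the annotation had a region, with 10.2% of protein-coding genes and 5.72% of lncRNA genes. MYC itself, though 58.4 kb from the PVT1 region, is not counted, since that region goes to PVT1, and microRNA genes are credited with none. Of 26 genes of the MYC locus, microRNA genes included, 3 had a region: PVT1, LINC00824 and CCDC26, with 4 of the 5 regions and a median mean of -0.75. These 3 are genes of the stretch itself. Their count and median therefore restate the 5 regions and are not to be set against the 8.05%. No gene of this list had a region outside the stretch. In the MYC network, 1 of 13 genes had one: MYCN, a paralogue of MYC, held a region (chr2:15940641-15941050) at -0.70 in KMS-11 and -0.91 in KMS-12, with -0.11 in RPMI8226 in the authors' deposited table. Of 23 cancer lncRNA genes, 2 had one, against 5.72% of all lncRNA genes: MIR155HG, the host of miR-155 (chr21:25573013-25573325), had a mean of -0.45 ± 0.32, and SNHG5, a small nucleolar RNA host gene 6.80 kb from its region (chr6:85669737-85670211), a mean of -0.68 ± 0.23 (SD, n = 3 lines each). MYCN had KMS-12 lowest, then KMS-11, then RPMI8226, the order of the 3 middle regions and of 25.1% of all regions. Its KMS-12 value of -0.91 was higher than theirs, which were -1.39 to -1.53. MIR155HG and SNHG5 had RPMI8226 lowest.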

How the data were processed

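ATAC-seq of 6 libraries was analysed from 1 table, grouped by the treatment in the labels. For each region the authors deposited a log fold change in every line, taken as log2, and a count of the lines in common, per the file headers, which give neither log base nor direction. Base 2 was taken because DESeq2 is named, with MACS2, hg38 and GRCh38.p13, per the submitters' processing notes. JQ1 over DMSO was assumed, since the labels name the treatments but not the direction of the ratio. The sources used here do not state the aligner, the read filters or how libraries were scaled. Depth is unknown, so no counting interval or count model could be given.

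Regions were placed on the gene that overlaps them, otherwise the nearest, among the lncRNA and protein-coding genes of RefSeq's GRCh38.p14 table, used for names and distances. Strand and exons are not in it, so exons, introns and UTRs were not assigned. No sequence is shown. Means and SDs are over the 3 lines, which pair the libraries. limma (version 3.58.1, R 4.3.3) was fitted to all 3838 regions, once against 0 and once after subtraction of line medians, with Benjamini-Hochberg adjustment and a threshold of 0.05, and was tested on simulated data. Prior degrees of freedom were infinite. The named regions are the 5, the 2 most similar to each, their neighbours and the members of gene lists (MYC locus, MYC network, cancer lncRNAs) that hold a region or are the nearest gene to one within 100 kb. A further list is not reported here. Members and lists were chosen with earlier results of these data known. Nothing says that libraries came from separate cultures, so p-values rest on the spread between lines and not on replicate cultures. In the main fits that spread is pooled over all regions and is not the region's own. Alternatives left out each line, used a variance trend, no moderation, the median over lines, chromosome 8 medians, a threshold of 0.01, no repeated values (shared by 10 or more regions in KMS-11 or KMS-12) or a wider stretch.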

Additional observations from a re-analysis of the deposited data

How the results depend on the processing

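Every fit is paired, since a deposited fold compares both libraries of a line, and no unpaired fit could be made. Every fold of the table is below 0, so the means could not change sign. With 1 line left out they ranged from -0.69 to -0.57 for PVT1, -1.03 to -0.35 for LOC124902020, -1.02 to -0.64 for the region between the genes, -1.32 to -0.60 for LINC00824 and -0.69 to -0.50 for CCDC26. In these fits 0 to 3 of the 5 were called, against 1310 to 2112 of all 3838 regions. Calls were also lost at -0.59 (PVT1 without KMS-12), -0.76 (LOC124902020 without KMS-11), -0.81 (LINC00824 without KMS-11) and -0.51 (CCDC26 without KMS-12). Without moderation the means were as reported (-0.62, -0.71, -0.89, -0.91 and -0.57 in the same order) and 0 were called, as in the whole table, by limma's fit with 2 residual degrees of freedom per region. At an adjusted p under 0.01, 2 were called, LINC00824 and the region between the genes. The share of all regions at that limit is not reported here. Without repeated values 2 were called, since only PVT1 and the region between the genes were left to test. In that fit 911 of the 1301 regions left were called. Centred means with 1 line left out ranged from -0.28 to 0.31 for LOC124902020, -0.31 to 0.024 for the region between the genes, -0.57 to 0.067 for LINC00824, 0.065 to 0.13 for PVT1 and 0.065 to 0.20 for CCDC26. For LOC124902020 the centred median over lines was 0.087, above 0. The causes were not tested. The variance trend, chromosome 8 medians and the wider stretch changed no direction or call of the 5. With the variance trend, 3823 of all 3838 regions were called lower against 0. Unknown depth leaves the error of each single fold unknown.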
